A study of Mus musculus with 2 samples.

Results

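Homeobox genes encode transcription factors that bind DNA through a homeodomain and set position and cell identity in the embryo. Members of the Hox clusters are switched on in sequence as the body axis extends, and their proteins often bind DNA together with PBX and MEIS cofactors of the TALE class. In undifferentiated embryonic stem (ES) cells most developmental homeobox genes are held off by Polycomb proteins, while general factors such as POU2F1 are made in many cell types.

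The genes described here were chosen by symbol. The zero-padded number in a probe's identifier was read as an NCBI mouse Gene number, and symbols that start with one of 27 homeobox prefixes (Hox, Lhx, Pax, Nkx, Pou, Pbx and others) were kept, apart from Lhx1. With 2 further matched genes that are not reported here also left out, this gave 60 genes with 63 probes, out of 8102 named genes. No measured value entered the match of symbols, but the members were chosen with earlier results of these data known. The label does not hold for every gene. Paxx (a factor of DNA end joining), Paxip1 (a protein of the DNA damage response and of histone methylation) and Hoxaas3 (a long non-coding RNA) carry matching symbols but encode no homeobox factor, which leaves 57 genes. Pax1 encodes a paired domain without a homeodomain.

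Mouse ES cells at day 0 were compared with EB cells at day 4, by 1 Illumina bead array each. EB usually stands for embryoid body, an aggregate in which ES cells differentiate, but the labels do not spell it out, and they give no cell line, medium, agent or genotype for either sample. Both arrays share 1 chip number, at different positions. With 1 sample a group there was no replicate check, no test was possible, and culture, chip position and group cannot be told apart. Signals are bead means, quantile normalized over both arrays. Errors are bead-level standard errors (SE), which cover measurement within an array and no biological spread. The signal floor of 230.0 is the lowest normalized EB signal with a detection score over 0.99. It was applied to ES as well, where no score was used. Differences are on the log2 scale, EB minus ES. A gene detected in either sample was called higher or lower where the 2 signals differed 2-fold (1 on that scale). Detection needed that score in EB or a deposited ES signal over the array's median of 173.9, a looser condition than the floor.

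Most of these genes gave no signal over the floor in either sample. Of 60 genes, 9 (15.0%) exceeded the floor in either array, against 47.7% of all named genes. In ES 5 genes (8.33%) were above it, against 44.1% of all named genes, and in EB 9 (15.0%), against 44.5%. Signals over 1000 came from 2 genes in ES (Pou2f1 and Zfhx3) and 2 in EB (Hoxb2 and Zfhx3), which is 3.33% each time, while 19.2% and 19.3% of all named genes reached that signal. The median signal of the 60 genes was 164.4 in ES and 163.9 in EB. The corresponding medians of all named genes were 200.6 and 202.0.

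**Figure D1:**
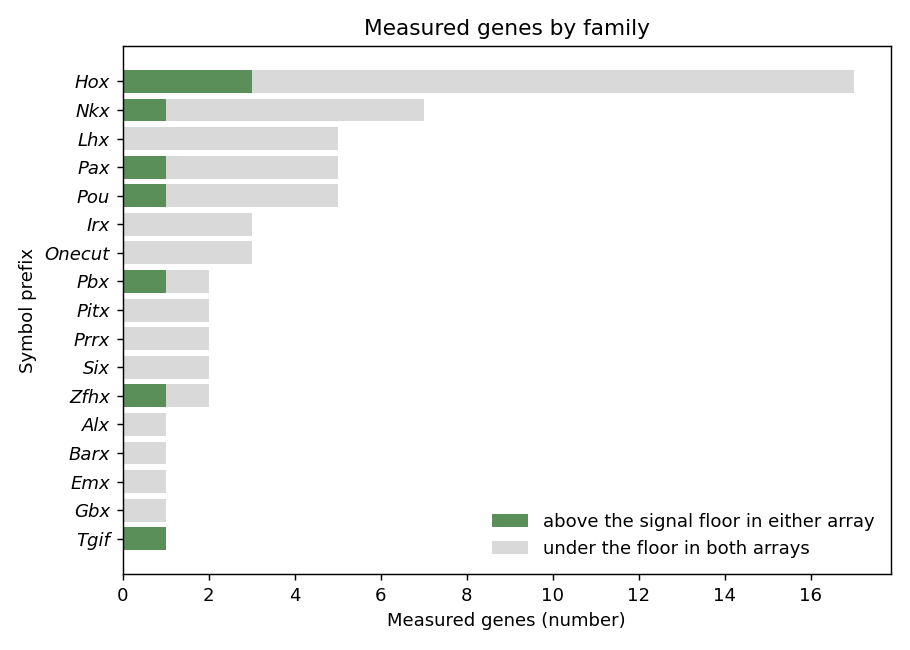
Number of measured genes (horizontal axis) for each symbol prefix (vertical axis), split into genes above the signal floor in either array and genes under it in both. The Hox prefix has 17 measured genes, 3 of them above the floor, and 10 of the 17 prefixes with a measured gene have none above it.

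Coverage was partial. A gene is called measured where a probe could be named, as 21.0% of the 46643 probes on the array were. Without Lhx1 and the 2 genes not reported here, the RefSeq gene table lists 179 genes with such symbols, 151 of them protein-coding. The 60 measured genes are thus a subset. Of the 27 prefixes 17 had a measured gene. Cdx, Dlx, Gsx, Hesx, Hhex, Isl, Meis, Mixl, Msx and Vax genes are not analysed here. Of 39 protein-coding Hox genes 16 were measured, namely 4 of 11 in the HoxA cluster, 4 of 10 in HoxB, 2 of 9 in HoxC and 6 of 9 in HoxD.

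Promoter windows from RefSeq (build GRCm38.p6, 250 bases before to 50 after a gene's start) were found for 43 of the 60 genes. Where a gene had several, the window with the most CpG dinucleotides was taken. The set is shown because CpG-rich promoters are a feature the symbol rule did not use. A CpG content of at least 0.6 of that calculated from the C and G content was found in 27 of the 43 windows (62.8%), against 50.7% of 17492 protein-coding genes. It was found in 5 of the 6 windows of genes above the floor (83.3%) and in 22 of the 37 under it (59.5%). The 5 include Paxx, which is no homeobox factor. Zfhx3, Paxx, Tgif2 and Nkx1-2 lay just over the limit, between 0.63 and 0.64. A link between CpG content and signal was not tested. The windows below belong to the homeobox genes with signal above the floor in both arrays that had an entry. Hoxb2, Pbx3 and Hoxc8 had none. CpG dinucleotides are in capitals.
Pou2f1: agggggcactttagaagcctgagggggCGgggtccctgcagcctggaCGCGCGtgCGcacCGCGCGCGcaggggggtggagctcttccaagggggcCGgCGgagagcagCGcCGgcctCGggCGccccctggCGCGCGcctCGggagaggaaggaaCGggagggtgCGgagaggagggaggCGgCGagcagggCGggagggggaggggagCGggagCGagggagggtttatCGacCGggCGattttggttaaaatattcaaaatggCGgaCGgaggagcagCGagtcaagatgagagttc
Zfhx3: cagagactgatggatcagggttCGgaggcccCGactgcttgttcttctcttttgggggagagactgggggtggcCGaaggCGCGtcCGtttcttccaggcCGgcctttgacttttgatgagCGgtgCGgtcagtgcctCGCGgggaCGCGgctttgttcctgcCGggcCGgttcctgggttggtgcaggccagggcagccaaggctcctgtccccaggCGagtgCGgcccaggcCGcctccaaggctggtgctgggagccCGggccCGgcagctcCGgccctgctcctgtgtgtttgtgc
Tgif2: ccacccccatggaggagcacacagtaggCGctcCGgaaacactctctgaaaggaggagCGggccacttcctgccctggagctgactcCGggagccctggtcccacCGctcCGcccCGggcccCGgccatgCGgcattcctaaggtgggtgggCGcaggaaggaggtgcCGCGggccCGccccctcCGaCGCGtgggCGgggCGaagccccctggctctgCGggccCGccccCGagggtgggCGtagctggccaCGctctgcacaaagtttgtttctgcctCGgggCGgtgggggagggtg
The Pou2f1 window lies at chr1:166002585-166002884 on the minus strand and holds 32 CpG dinucleotides. That of Zfhx3 lies at chr8:108714394-108714693 on the plus strand, with 21, and that of Tgif2 at chr2:156839757-156840056 on the plus strand, with 25. Among the 43 windows the median was 18, and it was 15 among protein-coding genes. The GC box GGGCGG, searched on both strands, was in 28 of the 43 windows (65.1%), against 48.1% of protein-coding genes, with 2 matches for Pou2f1, 5 for Tgif2 and 0 for Zfhx3. The octamer ATGCAAAT, which POU2F1 binds, was in 0 of the 43 windows and in 1.63% of those of protein-coding genes. The TALE core TGACAG was in 4 of the 43 (9.30%, against 18.6%) and the homeodomain core TAATTA in 2 (4.65%, against 4.53%). No motif contains another, all were searched on both strands, and a match is a run of letters in a window, not a site.

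Of the 60 genes Hoxb2 alone passed the 2-fold rule, and it was higher in EB. That is 1 of 23 detected genes higher (4.35%), where 2.78% of all detected named genes were higher, and 0 lower, where 3.99% were lower. Under the main processing, counts this small and shares this near the background are no result about the genes as a class. They leave out Lhx1, which matches a prefix but is outside the 60 genes and was also more than 2-fold higher in EB. At a 1.5-fold limit 2 of 23 were higher (8.70%, background 9.24%) and 2 were lower (8.70%, background 9.09%). However, 14 of the 23 were under the floor in both arrays, where the size of a difference has no meaning. Of the 9 above it, 2 were higher and 2 lower at that limit (22.2% each). No share of all named genes was taken on that base, so the nearness to the background holds for detected genes only.

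**Figure D2:**
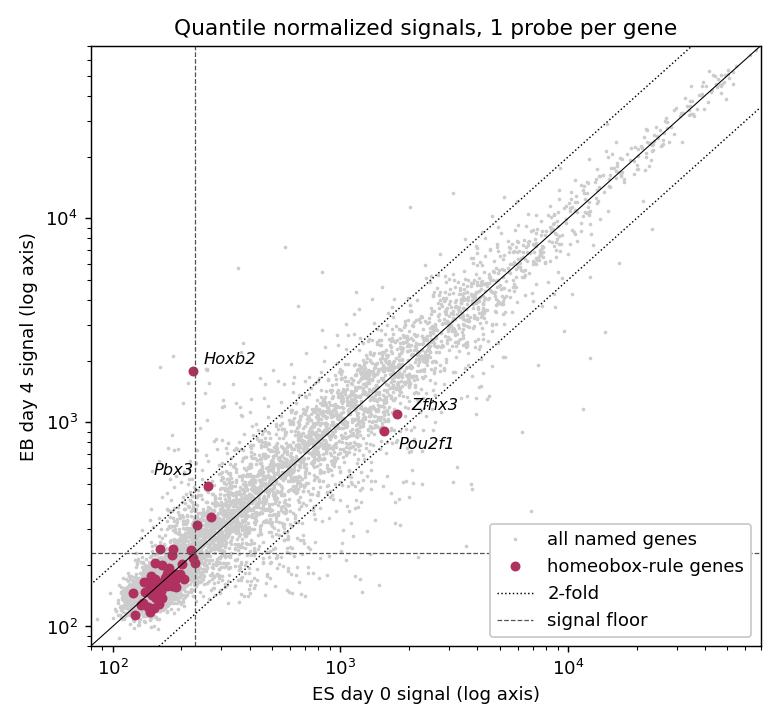
Normalized signal in ES (horizontal log axis) and EB (vertical log axis) for all named genes (grey) and the 60 homeobox-rule genes (red), with dashed lines at the signal floor and dotted lines at 2-fold. Most red points lie under the floor of 230.0 on both axes, Hoxb2 stands above the upper 2-fold line, and Pou2f1 and Zfhx3 lie between the diagonal and the lower one.

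Hoxb2, an anterior Hox gene needed for patterning of the hindbrain (identifier scl0103889.1_67-S), had a signal of 225.8 ± 12.2 in ES (SE, 48 beads) and 1789.5 ± 65.0 in EB (SE, 36 beads). The ES signal lay just under the floor and the EB signal far above it, at percentile 87.7 of the named genes on that array. EB was at least 7.78-fold higher. The log2 difference was 2.99 (bead-level 95% interval 2.80 to 3.17), and 2.96 with signals set to the floor. Lhx1, left out of this set by its rule, gave 184.9 in ES and 2106.7 in EB, at least 9.16-fold higher. It thus passed the 2-fold rule but is in none of the counts.

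The other HoxB genes measured were under the floor in both samples. Hoxb7 was at 153.9 in ES and 171.0 in EB, Hoxb8 at 151.4 and 147.4, and Hoxb13 at 187.9 and 169.6. In the gene order of the RefSeq table Hoxb2 lies between Hoxb1 and the Hoxb3 and Hoxb4 genes, none of which is analysed here, so Hoxb2 is not set against a direct neighbour on the chromosome. Hoxb7 and Hoxb8, which act in the trunk, lie farther along the cluster and Hoxb13, a gene of the tail region, at its far end.

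In the other clusters 2 Hox genes crossed the floor, both of paralog group 8 and both in EB alone. Hoxd8 had a signal of 184.9 ± 11.0 in ES (SE, 41 beads) and 240.4 ± 13.2 in EB (SE, 44 beads), and its EB signal exceeded the floor by less than 1 SE. The log2 difference of Hoxd8 was 0.38 (95% interval 0.15 to 0.61). Hoxc8 had 221.8 ± 10.0 in ES (SE, 54 beads) and 237.2 ± 13.0 in EB (SE, 44 beads), which differed by 0.10 (-0.10 to 0.30), an interval that holds 0. The EB signals were 1.05 (Hoxd8) and 1.03 (Hoxc8) times the floor, each within 1 SE of it, so no difference of size could be shown for them.

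Set in order of paralog number, which follows the order along a cluster, Hoxb2 was the one measured gene whose signal exceeded the floor by more than 1 bead-level SE. Of 5 genes with numbers 1 to 4, 1 (Hoxb2) was above the floor in EB and 0 in ES, with EB signals from 151.7 to 1789.5. Hoxa3 in this group gave 153.1 in ES and 205.4 in EB with an EB detection score of 0.966, and Hoxd4 gave 181.7 and 223.9 with a score of 0.988. Both scores missed the limit of 0.99, and both genes were under the floor in both arrays, so no difference is given. Of 5 genes with numbers 5 to 8, 2 (Hoxc8 and Hoxd8) were above it in EB and 0 in ES. Of 6 with numbers 9 to 13, 0 were above it in either array, and their EB signals ran from 153.9 to 189.4. With 3 of the 16 genes above the floor, no order along the clusters can be read from these values. Hoxaas3, transcribed from the HoxA cluster, gave 143.4 in ES and 124.0 in EB.

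**Figure D3:**
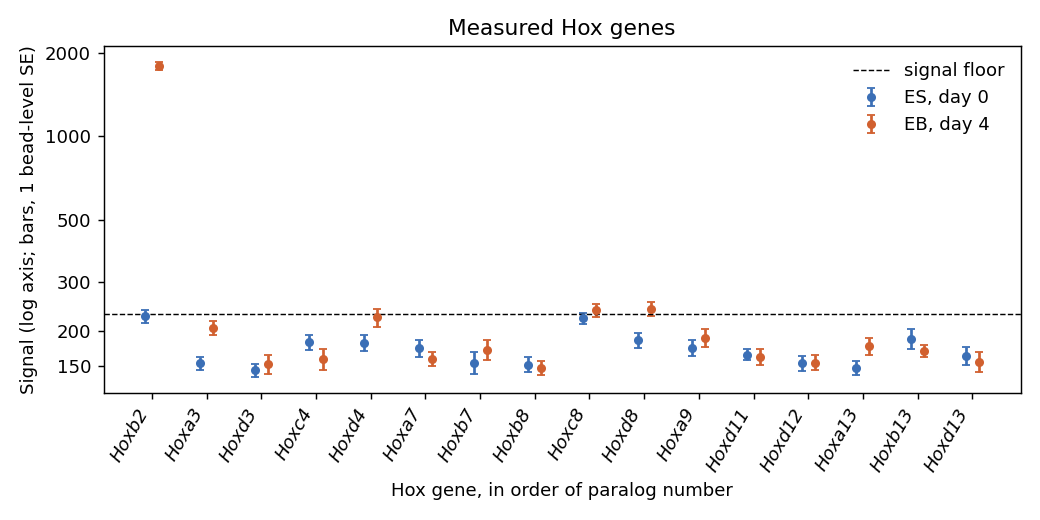
Normalized signal (vertical log axis, bars of 1 bead-level SE) of the 16 measured Hox genes in ES and EB, ordered by paralog number, with the floor dashed. Hoxb2 in EB stands at 1789.5, every other point lies at or under 240.4, and the genes numbered 9 to 13 stay under the floor in both samples.

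Pbx3, a cofactor that binds DNA as a partner of HOX proteins, was next in size. The gene (identifier scl018516.1_119-S) had a signal of 262.6 ± 13.4 in ES (SE, 47 beads) and 486.3 ± 20.3 in EB (SE, 40 beads). Both signals exceeded the floor and EB was 1.85-fold higher, a log2 difference of 0.89 (95% interval 0.70 to 1.08) under the 2-fold rule. Pbx4, a member best known from the testis, gave 226.2 in ES and 217.0 in EB, both under the floor.

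Tgif2, a TALE factor that represses transcription with SMAD proteins of the TGF-beta pathway, had a signal of 270.9 ± 13.3 in ES (SE, 39 beads) and 345.7 ± 18.3 in EB (SE, 28 beads). It was 1.28-fold higher in EB, a log2 difference of 0.35 (95% interval 0.15 to 0.56). The second probe of Tgif2 lay under the floor in both arrays (172.8 and 151.4), so the sign of its difference of -0.19 cannot be read. It neither backs nor contradicts the first probe. Tgif2 was thus not among the 390 named genes with 2 probes above the floor in either array. The probes of such a gene gave log2 differences that were 0.40 apart by their SD, which exceeds the whole difference of Tgif2. The differences of Hoxc8 (0.10) and Hoxd8 (0.38) also lie under this SD, and that of Paxx (0.42) just over it. Bead-level intervals do not cover this spread between probes, for any of the genes.

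Nkx1-2, a gene of the caudal epiblast and early neural plate, had 161.2 ± 10.2 in ES (SE, 45 beads) and 238.6 ± 14.8 in EB (SE, 38 beads). The ES signal was under the floor and the EB signal within 1 SE of it, at 1.04 times the floor. The log2 difference of 0.57 (95% interval 0.32 to 0.82) rests on that ES signal. With signals set to the floor it was 0.053. The other 6 Nkx genes were under the floor in both samples. Paxx, the end-joining factor caught by its symbol, gave 235.4 ± 15.6 in ES (SE, 40 beads) and 315.8 ± 18.2 in EB (SE, 33 beads), 1.34-fold higher with a log2 difference of 0.42.

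Both genes with an ES signal over 1000 were lower in EB. Pou2f1 (OCT1, the widely made relative of the pluripotency factor POU5F1, identifier scl0018986.2_103-S) had a signal of 1554.0 ± 54.5 in ES (SE, 38 beads) and 905.4 ± 36.6 in EB (SE, 33 beads). It was 1.72-fold lower in EB, a log2 difference of -0.78 (95% interval -0.93 to -0.63). Zfhx3 (ATBF1, a large protein with zinc fingers and several homeodomains, identifier scl011906.16_208-S) had 1779.7 ± 53.0 in ES (SE, 37 beads) and 1099.6 ± 33.6 in EB (SE, 40 beads). It was 1.62-fold lower, with -0.69 (-0.82 to -0.57). Neither reached 2-fold, and each rests on 1 probe.

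**Figure D4:**
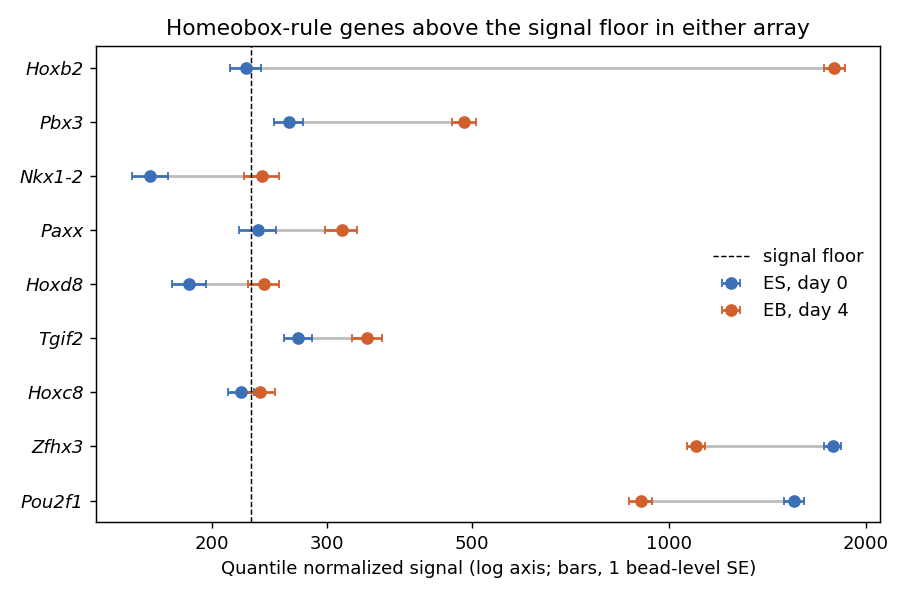
Normalized signal (horizontal log axis, bars of 1 bead-level SE) in ES and EB for the 9 genes above the floor in either array, sorted by log2 difference. Hoxb2 runs from 225.8 to 1789.5, Pou2f1 and Zfhx3 are the 2 genes whose EB signal is the lower one, and 4 of the 9 have an ES signal under the floor (dashed).

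Over these 9 genes the median log2 difference was 0.38, from -0.78 to 2.99, against 0.06 over all named genes above the floor. With signals set to the floor these medians were 0.064 and 0.05. Of the 9, 4 (Hoxb2, Hoxc8, Hoxd8 and Nkx1-2) passed the floor through EB alone, which fixes a positive sign, and 0 through ES alone. The median is a description of 9 genes and shows no shift of the class. The 5 genes above the floor in both arrays were Pbx3, Tgif2, Paxx, Zfhx3 and Pou2f1, with 3 positive and 2 negative differences. Their median was 0.35, close to that of the 9. Without Paxx 8 homeobox genes remained above the floor.

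The remaining 51 genes were under the floor in both arrays, with ES signals from 123.3 to 229.7 and EB signals from 114.0 to 223.9. Their log2 differences ran from -0.31 to 0.42 with a median of -0.05, and 19 were positive. Of these 51, 5 (9.80%) exceeded 2 bead-level SE, against 14.5% of 4235 named genes under the floor. They include regulators of late organ and neuron types. Pax6 (eye and brain) gave 135.6 in ES and 130.6 in EB, Nkx2-1 (thyroid, lung and forebrain) 206.3 and 170.8, Onecut1 (liver and pancreas) 177.7 and 193.7, and Pou1f1 (pituitary) 173.3 and 180.8. All of these signals lay under the floor. Of the 51 genes 14, Nkx2-1 and Onecut1 among them, still count among the 23 detected, through the looser ES condition. Also under the floor were the 5 other Lhx genes (Lhx3, Lhx5, Lhx6, Lhx8 and Lhx9), the 3 Irx and 3 Onecut genes, Six3 and Six4, the 2 Pitx genes, Prrx1 and Prrxl1, and Alx4, Barx2, Emx1 and Gbx1. Of the 51, Six4 came closest, with 229.7 in ES and 205.2 in EB. At these signals low transcript levels could not be detected, and absence is not shown.

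Homeobox genes outside the symbol rule were taken from a list of 74, of which 31 were measured and 15 exceeded the floor (48.4%, against 47.7% of all named genes). Here 2 were higher and 1 lower, of 22 detected, where 2.78% and 3.99% of all detected named genes were. Otx2, a head organiser and epiblast gene, was measured at 336.1 in ES and at 1542.4 in EB (4.59-fold higher). Prox1, a factor of lymphatic, liver and lens cells, gave 179.4 and 368.7 (at least 1.60-fold higher), and was not past 2-fold with its ES signal set to the floor. Nanog, the pluripotency homeobox gene, gave 14529.8 and 2760.2 (5.26-fold lower).

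Regulators that act on homeobox genes were also listed. Of 14 measured Polycomb and trithorax genes (of 33) 11 exceeded the floor, with 4 positive and 7 negative differences. Of the 13 detected, 0 were higher and 2 lower, where 2.78% and 3.99% of all detected named genes were. Cbx7, a Polycomb protein that reads methylated histone H3, went from 6265.0 in ES to 900.2 in EB, which is 6.96-fold lower, and Mtf2, which brings the methylating Polycomb complex to CpG islands, from 10452.0 to 4272.5, which is 2.45-fold lower. Of 9 measured retinoic acid pathway genes (of 24) 7 exceeded the floor and 0 passed the 2-fold rule, with differences from -0.92 to 0.19. Their part in the Hoxb2 difference was not tested.

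The labels were set beside markers, which were not chosen for these genes. The marker lists were chosen with earlier results of these data known, so they are no independent check of the labels. Of all detected named genes 2.78% were higher and 3.99% lower. Of 10 measured ES markers (of 18) all exceeded the floor in ES and 9 were lower in EB, and their summed signal was 48420.8 in ES and 5094.6 in EB. Klf2 gave 9100.0 and 251.6, Zfp42 5247.8 and one under the floor, and Sox2 493.0 and one under the floor. Of 4 measured streak and mesoderm markers (of 19) 3 were higher, among them Eomes (259.0 and 1828.2), and 1 was lower, Lefty2 (2106.9 and 811.2, 2.60-fold), and their summed signals were 2839.2 and 5217.8. The neural list had 1 of 8 higher (Otx2), with sums of 5799.9 in ES and 5181.9 in EB, and the endoderm list 1 of 3 (Gata4), with sums of 1184.9 and 1707.5. Gata4 was under the floor in ES, at least 1.97-fold higher in EB, and thus not past 2-fold with signals set to the floor. Of 10 trophoblast genes 3 were higher and 2 lower, with sums of 31681.8 and 29927.2. Among 8 fibroblast genes, which feeder cells would carry, 1 was higher (Fbln2) and 1 lower (Col1a1), the sums were 4210.1 and 4202.9, and Col1a2, Col3a1, Dcn and Postn were under the floor in both arrays. In samples of many cells, fewer cells of a type and less RNA per cell cannot be told apart. The part of these cell types in the Hoxb2 difference was not tested.

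How far a difference depended on background treatment varied between genes. For Pou2f1 and Zfhx3 the log2 differences stayed between -0.92 and -0.74 and between -0.80 and -0.66 over 6 other ways of processing. Hoxb2 ran from 2.96, with signals set to the floor, to 5.15 in the series value table, which stretches dim signals. That table put 6 of the 23 detected genes past 2-fold (Hoxb2, Hoxd4, Hoxd8, Nkx1-2, Paxx and Pbx3), all of them higher. This is a larger share than the 10.5% of all detected named genes that were higher there, but it is no result about the class. Neither signal of Hoxd4 reached the floor, so the size of its difference cannot be read. Hoxd8 and Nkx1-2 exceeded the floor only in EB, by less than their bead-level SE, and their positive sign was thereby fixed. Paxx is no homeobox factor. Normexp background correction put 2 of the 23 past 2-fold, Hoxb2 and Pbx3 (1.08), where 4.09% of all detected named genes were higher. In both settings 0 of the 23 were lower, where 11.1% and 5.21% of all detected named genes were. How near the shares lay to the background thus depended on the setting.

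**Figure D5:**
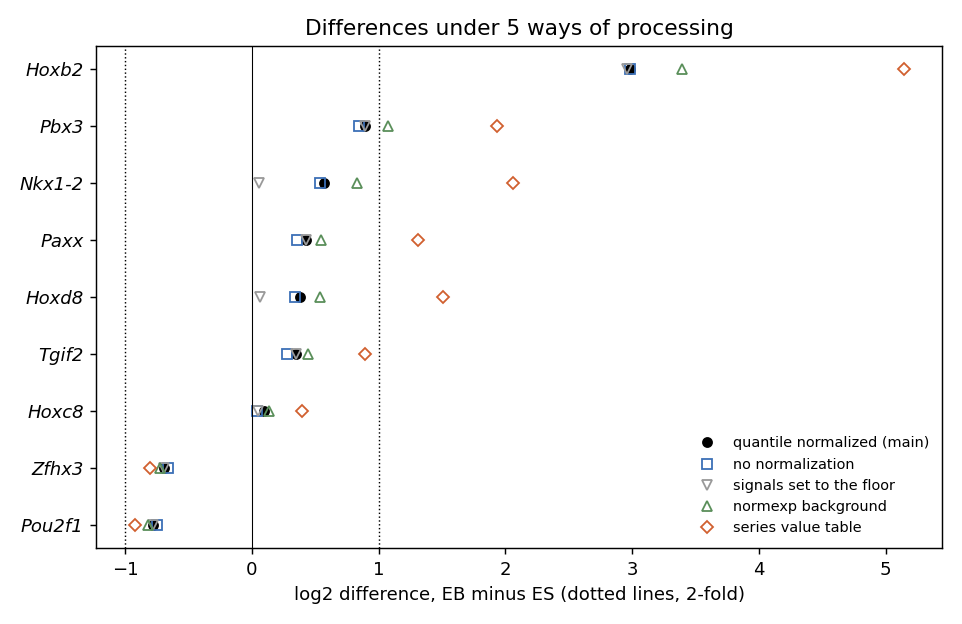
Log2 difference, EB minus ES (horizontal axis), of the 9 genes above the floor under 5 ways of processing (symbols), with dotted lines at 2-fold. Hoxb2 lies to the right of 2-fold under all 5, Pou2f1 and Zfhx3 hold their values within the lower 2-fold line, and Hoxb2 moves most in the series value table, from 2.99 to 5.15.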

How the data were processed

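The authors deposited 1 text file per array and a series value table. Per the file headers the signal intensity is the mean over the beads of a probe, read in BeadStudio 2.3.41 without normalization. The sample titles in the labels speak of normalised data without saying whether these files or the series value table are meant. BeadStudio 2, RMA and limma also appear in the submitters' processing notes, with no role given. The deposited bead count per probe had a median of 38 in ES and 37 in EB. The deposited detection score, a fraction from 0 to 1, was in the EB file. The deposited bead spread fell with bead count at log slopes of -0.44 and -0.47, as a standard error would, and was read as one.

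Intensities were quantile normalized and taken to log2 without background subtraction. Normexp correction (limma 3.58.1, R 4.3.3, offset 50) was an alternative. Other steps ran in Python 3.11.15 and were tested on simulated data. Of 11857 probes with a Gene number of at least 10000, 9796 (82.6%) matched a RefSeq gene table (GRCm38.p6), used for names and gene order. Of the genes the symbol rule matched, 2 are not reported here. The probe with the highest mean log2 signal stood for a gene. Genes above the floor are named with values, and the others are counted by family. From other lists those past the 2-fold rule are named, with preset markers. The members, the 9 lists (228 entries) and these rules were chosen with earlier results of these data known. The number of arrays limits the precision.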

Additional observations from a re-analysis of the deposited data

How the results depend on the processing

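No paired analysis was possible because ES and EB have 1 array each, and for that reason none could be left out. The count of 1 gene higher and 0 lower was the same without normalization, with a common median, with signals set to the floor, with the mean over probes, with a floor in either array, with no detection filter, at a 4-fold limit and without Paxx, Paxip1 and Hoxaas3. The series value table gave 6 higher (5 among genes above the floor), normexp 2 higher, and a 1.5-fold limit 2 higher and 2 lower. Of all detected named genes, 10.5% were higher in the series value table and 4.09% with normexp. At the 1.5-fold limit 9.24% were higher and 9.09% lower. The median of the genes above the floor, 0.38, was 1.31 in the series value table and 0.064 with signals set to the floor. Over the genes above the floor in both arrays it was 0.35. Removing the 3 genes, and the floor within the series value table, were added after the data were seen. No sign of the 9 single differences turned under 6 settings, but all settings reprocess the same 2 arrays, so this is no independent check. For the 4 genes that passed the floor through EB alone the positive sign was fixed, and the interval of Hoxc8 held 0. Under the floor, size and order have no meaning.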
